A study of Ambystoma mexicanum with 8 samples.

Results

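The neural miRNAs miR-9, miR-124, miR-128 and miR-137 were followed in axolotl (*Ambystoma mexicanum*) forelimbs that had been amputated and left to regenerate. They were taken by name as the rows for exactly these miRNA numbers, and 4 of the 143 mature miRNAs measured in the limb met this rule: miR-9-1-5p, miR-124-4-3p, miR-128-1-3p and miR-137. Small RNA and polyA+ mRNA libraries were made from uninjured limbs (0 days post-amputation, dpa) and from regenerating limbs at 3, 6 and 14 dpa. All limbs were cut through the mid-zeugopod (the lower arm) under MS222 anesthesia, and the animals came from a stock center. The strain of the axolotls is not given in the sources used here, and the study's wording leaves it unclear whether they were adult. Each stage has 1 small RNA library and 1 mRNA library, and each library is a pool of at least 4 tissues. The comparison of stages asks how the levels of these miRNAs changed as the blastema, the dedifferentiated and proliferating tissue that rebuilds the limb, was formed.

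These miRNAs are known from the nervous system. miR-124 is abundant in differentiated neurons and represses many non-neuronal transcripts, miR-9 acts in neural progenitors and in the timing of neurogenesis, miR-128 is enriched in brain, and miR-137 acts in neural stem cells and in maturing neurons. A limb holds the axons of its nerves with the Schwann cells around them, while the cell bodies of the neurons lie outside the limb, in the spinal cord and ganglia. Axolotl limb regeneration is known to need a nerve supply, and axons are cut with the limb and grow back into the stump.

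The mature sequences of the axolotl miRNAs, read from the sequence file published with the study, are shown because the seed sets which transcripts a miRNA can pair with. They are written 5′ to 3′ in DNA letters, and capitals mark the seed, bases 2 to 8.
miR-9: tCTTTGGTtatctagctgtatg
miR-124: tAAGGCACgcggtgaatgctaa
miR-128: tCACAGTGaaccggtctcttt
miR-137: tTATTGCTtaagaatacgcgtag

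The seeds differed from each other, and any pair of seeds had the same base at no more than 4 of the 7 positions. None of the other miRNAs among the 143 axolotl sequences had the seed of a member at bases 2 to 8. The 7 letters of the miR-137 seed lay outside these bases in miR-454a-3p and miR-454b-3p. The 7 letters of the miR-128 seed lay 1 base further in than a seed, at bases 3 to 9, in miR-27b-3p and miR-27d-3p.
miR-27b: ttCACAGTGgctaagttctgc
miR-27d: ttCACAGTGgctaagttctg

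The miR-128 sequence was the same in the 2 fishes of the study, the zebrafish and the bichir. miR-137 had the same sequence in the bichir. The miR-9 sequence of both fishes was 1 base longer, with 23 bases against 22 in the axolotl, and had the same seed.

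The miRNA reads added up to between 901281 (3 dpa) and 1918841 (14 dpa) per library. miR-21 took 1.92% of them at 0 dpa and between 39.7% and 46.1% at the later stages, so TMM scaling (trimmed mean of M values), which sets aside the miRNAs that change most, was used beside scaling by the totals. Levels are given as reads and as scaled cpm, reads divided by the TMM-scaled size of the library. With 1 library per stage no difference has a replicate check within the sequencing and no test was made. The 95% intervals are exact Clopper-Pearson intervals and hold the error of counting alone. Reads copied by PCR and carrying no molecular identifier are not separate molecules, and the intervals leave out differences between animals and between pools. In whole tissue, fewer cells of a type and less of an RNA in each cell cannot be told apart. All 7 miRNAs of a skeletal muscle list were detected at each of the 4 stages. Nearly all miRNAs were, with 143, 140, 141 and 141 of 143 detected at 0, 3, 6 and 14 dpa, so detection does not set this list apart.

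The neural miRNAs were rare in the limb and their levels moved apart during regeneration. miR-9 was 12.6-fold higher at 14 dpa than in the uninjured limb, while miR-128 was 12.7-fold lower at 6 dpa. miR-124 had 24 reads at 0 dpa and between 1 and 4 at every later stage. miR-137 differed least, with a highest level 3.05-fold above its lowest. The 4 miRNAs together had 476 reads at 0 dpa and 165, 78 and 606 reads at 3, 6 and 14 dpa. Their joint share of the miRNA reads was 0.0367%, 0.0183%, 0.00618% and 0.0316% at 0, 3, 6 and 14 dpa. On the TMM scale their sum was 264, 171, 73.3 and 395 cpm at these stages.

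**Figure D1:**
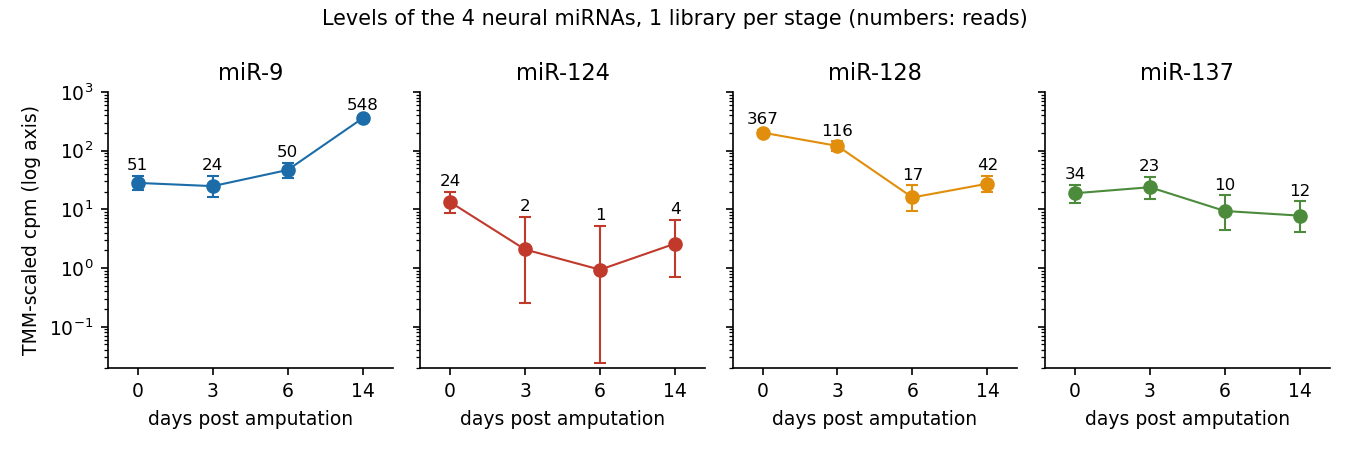
TMM-scaled cpm of each neural miRNA (log axis) against the day after amputation, with 1 library per stage, exact 95% counting intervals as bars and the number of reads above each point. miR-9 was highest at 14 dpa (548 reads), miR-124 and miR-128 were highest at 0 dpa (24 and 367 reads), and miR-137 stayed between 10 and 34 reads.

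miR-9 had 673 reads over the 4 libraries, most of them from 14 dpa. It had 51 reads at 0 dpa and 24, 50 and 548 reads at 3, 6 and 14 dpa. Its scaled level was 28.3 cpm (21.1 to 37.2) at 0 dpa, 24.9 cpm (16.0 to 37.1) at 3 dpa, 47.0 cpm (34.9 to 61.9) at 6 dpa and 358 cpm (328 to 389) at 14 dpa. The 14 dpa library thus stood apart from the others, while the intervals of 0 and 3 dpa overlapped over most of their length and those of 0 and 6 dpa overlapped slightly. The log2 fold change over 0 dpa was -0.18 (-0.95 to 0.54) at 3 dpa, 0.73 (0.14 to 1.32) at 6 dpa and 3.66 (3.24 to 4.10) at 14 dpa. The value at 14 dpa ranked 8 from the highest of 143 miRNAs. The value at 6 dpa depended on the scaling, with 0.01 by total counts and 0.33 by the upper quartile. From 6 to 14 dpa miR-9 was higher by 2.93 on the log2 scale (2.51 to 3.38), rank 4 of 143.

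miR-128 had 367 reads at 0 dpa and 116, 17 and 42 reads at 3, 6 and 14 dpa. Its scaled level was 204 cpm (183 to 225) at 0 dpa, 120 cpm (99.5 to 144) at 3 dpa, 16.0 cpm (9.31 to 25.6) at 6 dpa and 27.4 cpm (19.8 to 37.0) at 14 dpa. The order of the stages was therefore 0, 3, 14 and 6 dpa, and only the last neighbours in it had overlapping intervals. The log2 fold change over 0 dpa was -0.76 (-1.07 to -0.45) at 3 dpa, -3.66 (-4.47 to -2.97) at 6 dpa and -2.89 (-3.39 to -2.43) at 14 dpa. Most of the difference lay between 3 and 6 dpa, where the log2 fold change was -2.90 (-3.74 to -2.17), rank 8 from the lowest of 143. From 6 to 14 dpa it was 0.77 with an interval that holds 0 (-0.07 to 1.68).

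miR-124, the neuronal miRNA, was the rarest of all 143 miRNAs over the 4 libraries, with 31 reads. It had 24 reads at 0 dpa and 2, 1 and 4 reads at 3, 6 and 14 dpa. These are 13.3 cpm (8.53 to 19.8) in the uninjured limb and 2.08 cpm (0.251 to 7.50), 0.940 cpm (0.0238 to 5.24) and 2.61 cpm (0.711 to 6.68) at the later stages in turn. The uninjured limb was above each regenerating stage without overlap of the intervals, and the order of the 3 later stages could not be told at this depth. The log2 fold change over 0 dpa was -2.63 (-5.81 to -0.67) at 3 dpa, -3.71 (-9.19 to -1.21) at 6 dpa and -2.32 (-4.34 to -0.81) at 14 dpa. The reads at 3 and 6 dpa were under the floor of 3 reads, which is 3.33 cpm and 2.38 cpm of the unscaled libraries.

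miR-137 had 34 reads at 0 dpa and 23, 10 and 12 reads at 3, 6 and 14 dpa. Its scaled level was 18.9 cpm (13.1 to 26.3) at 0 dpa, 23.9 cpm (15.1 to 35.8) at 3 dpa, 9.40 cpm (4.51 to 17.3) at 6 dpa and 7.83 cpm (4.05 to 13.7) at 14 dpa. The levels of the early stages were thus above those of the later ones, but all pairs of stages had overlapping intervals except 3 and 14 dpa. The log2 fold change over 0 dpa was 0.34 (-0.49 to 1.15) at 3 dpa, -1.0 (-2.19 to 0.05) at 6 dpa and -1.26 (-2.35 to -0.28) at 14 dpa. The sign at 3 dpa turned under total counts, with -0.04. From 3 to 6 dpa the log2 fold change was -1.33 (-2.58 to -0.22).

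A log2 change of 0.58 (1.49-fold), the cut-off used by the study for miRNAs, was then used to count miRNAs as higher or lower. At 3 dpa, 2 of the 4 neural miRNAs were lower than at 0 dpa and 0 were higher, against 27.3% lower and 28.0% higher over all 143 miRNAs. At 6 dpa, 3 were lower and 1 was higher, against 43.4% and 38.5%. At 14 dpa, 3 were again lower and 1 higher, against 39.2% and 35.0%. Past the cut-off in either direction were 2 of the 4 at 3 dpa (55.2% of all miRNAs), 4 at 6 dpa (81.8%) and 4 at 14 dpa (74.1%). Changes of this size were thus common in the limb, and the counts for 4 miRNAs do not set them apart. The 3 comparisons share the 0 dpa library. The median of the neural miRNAs was -0.47 at 3 dpa, -2.33 at 6 dpa and -1.79 at 14 dpa, while the median of all miRNAs was 0.05, -0.23 and -0.05.

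Between neighbouring stages the counts were 1 higher and 3 lower from 3 to 6 dpa, against 30.1% and 39.2% of all miRNAs, and of the lower ones miR-124 rested on 2 and 1 reads (log2 -1.05, -7.03 to 3.12). From 6 to 14 dpa, 3 were higher and 0 lower, against 27.3% and 23.1%. In either direction these were 4 of 4 from 3 to 6 dpa (69.2% of all) and 3 of 4 from 6 to 14 dpa (50.3%). Of these 3, miR-9 was the one whose interval left out 0, and miR-124 rested on 1 and 4 reads (log2 1.39, -1.86 to 7.10). Scaling by total counts moved the median of all miRNAs by -0.38 at 3 dpa, -0.71 at 6 dpa and -0.80 at 14 dpa over 0 dpa. The higher miRNAs then made up 31.0% of those past the cut-off at 6 dpa in place of 47.0%, and 29.2% at 14 dpa in place of 47.2%.

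**Figure D2:**
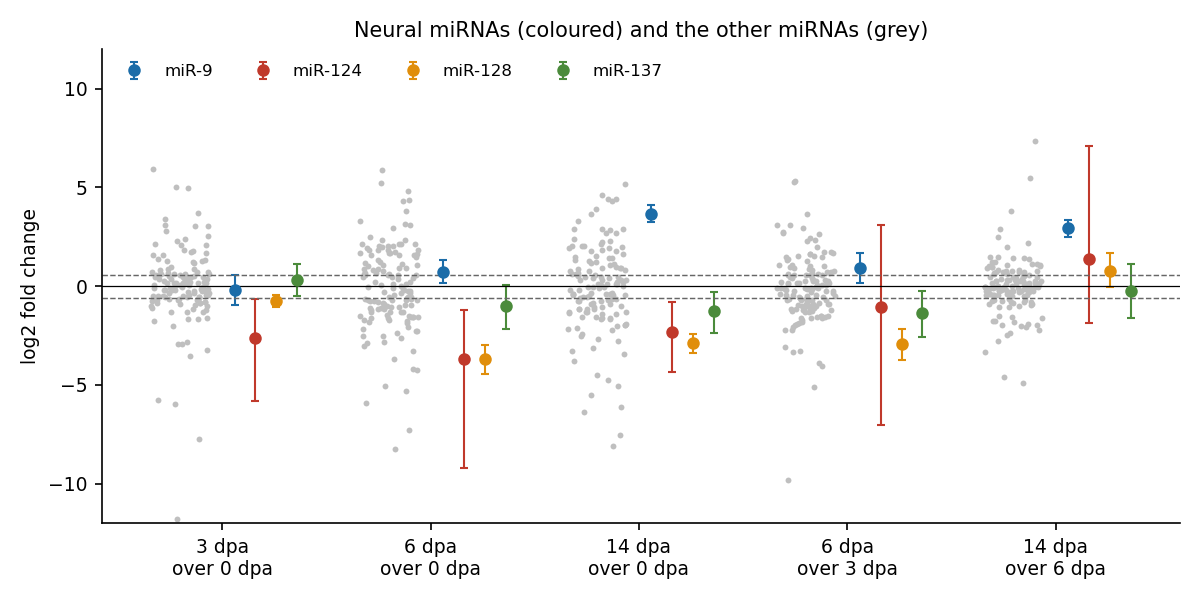
log2 fold change of the neural miRNAs (coloured points with exact 95% counting intervals) and of the other miRNAs (grey points) in 5 comparisons of stages, with dashed lines at the cut-off of 0.58 in each direction. miR-9 reached 3.66 at 14 dpa over 0 dpa, while miR-128 and miR-124 lay at -3.66 and -3.71 at 6 dpa.

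Shares within a library do not depend on the scaling between libraries. Of the reads of the 4 neural miRNAs, miR-128 took 77.1% (73.1 to 80.8) at 0 dpa, 70.3% (62.7 to 77.2) at 3 dpa, 21.8% (13.2 to 32.6) at 6 dpa and 6.93% (5.04 to 9.25) at 14 dpa. miR-9 took 10.7% (8.08 to 13.8), 14.5% (9.55 to 20.9), 64.1% (52.4 to 74.7) and 90.4% (87.8 to 92.7) at the same stages. Among these 4 miRNAs, the one with the most reads thus went from miR-128 to miR-9 between 3 and 6 dpa. miR-124 made up 5.04% (3.26 to 7.41) at 0 dpa and 0.660% (0.180 to 1.68) at 14 dpa.

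For each read of miR-128 there were 0.139 reads of miR-9 (0.102 to 0.187) at 0 dpa, 0.207 (0.127 to 0.323) at 3 dpa, 2.94 (1.67 to 5.44) at 6 dpa and 13.0 (9.53 to 18.3) at 14 dpa. The ratio was higher at each later stage, and the intervals of 0 and 3 dpa were the only ones to overlap. The ratio of miR-128 to miR-137 was 10.8 (7.59 to 15.8) at 0 dpa, 5.04 (3.20 to 8.27) at 3 dpa, 1.70 (0.735 to 4.15) at 6 dpa and 3.50 (1.81 to 7.30) at 14 dpa. miR-128 was thus lower relative to miR-137 at 6 and 14 dpa than at 0 dpa, although both were lower than at 0 dpa on the TMM scale.

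**Figure D3:**
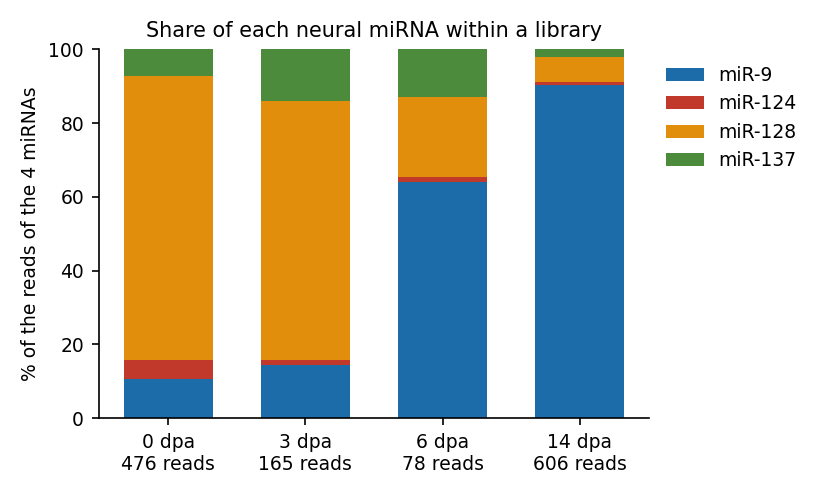
Share of each neural miRNA (stacked bars, in % of the reads of the 4 neural miRNAs) in the 0, 3, 6 and 14 dpa libraries, with the reads behind each bar under it. miR-128 made up 77.1% at 0 dpa and miR-9 made up 90.4% at 14 dpa.

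The miRNAs with the most similar course over the 4 stages were then looked up by the distance between log2 scaled levels, each centred on its own mean. For miR-9 the nearest of 142 miRNAs was miR-196d-5p, at a distance of 0.39, which had 990, 681, 1186 and 12756 reads at 0, 3, 6 and 14 dpa. miR-92a-1-3p (1.10) and miR-196a-1-5p (1.24) followed. The miR-196 genes lie in the Hox clusters, which pattern the limb along its length.

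For miR-128 the nearest were let-7i-3p (1.04), miR-139-5p (1.13), which is itself enriched in brain, and miR-2184-1-5p (1.18). let-7i-3p had 32, 27, 3 and 7 reads, and miR-2184-1-5p had 39, 38, 4 and 8, so that both rested on few reads. For miR-124 they were miR-301a-3p (0.72), miR-214-3p (1.05) and miR-199-1-3p (1.22). miR-124 itself had 2, 1 and 4 reads at 3, 6 and 14 dpa, so all its distances, to miR-128 as well, are loosely set. For miR-137 the nearest were miR-106a-5p (0.20), let-7j-5p (0.38) and miR-99-1-5p (0.40). miR-106a-5p had 45, 33, 12 and 17 reads, which are also few. No neural miRNA was among the 3 nearest of another. The closest pair of neural miRNAs was miR-124 with miR-128 (1.84, rank 14 of 142 seen from miR-124), and the farthest was miR-9 with miR-128 (5.42). These are likenesses over 4 libraries, which also share their scaling.

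**Figure D4:**
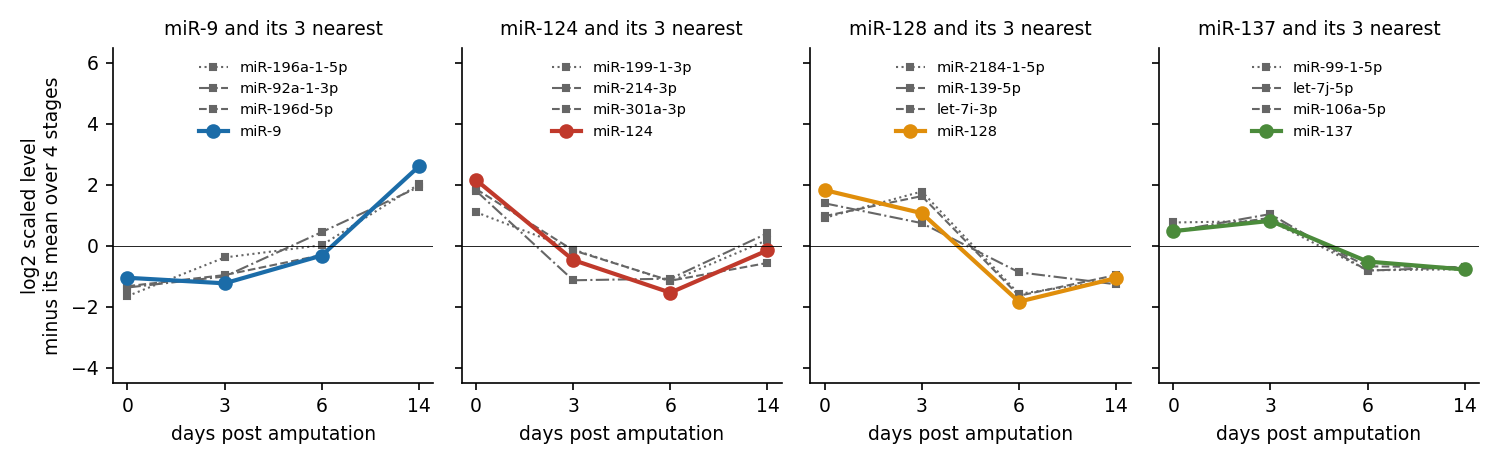
Course of each neural miRNA (thick coloured line) and of the 3 miRNAs nearest to it (grey dashed lines) over the 4 stages in days post-amputation, as the log2 scaled level minus its mean over the 4 stages. miR-9 with miR-196d-5p was highest at 14 dpa, while miR-128 and miR-124 with their neighbours were higher at 0 dpa than at 6 dpa.

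Other miRNAs abundant in nervous tissue were compared as a list of 7. At 6 dpa over 0 dpa, 5 were lower and 1 was higher, against 43.4% and 38.5% of all miRNAs, with a median of -1.57 on the log2 scale. At 3 dpa 3 were lower and 1 higher, against 27.3% and 28.0% (median -0.17). At 14 dpa 4 were lower and 1 higher, against 39.2% and 35.0% (median -0.77). miR-139-5p was the lowest of the list at 6 dpa, with 432, 147, 53 and 58 reads at the 4 stages and a log2 fold change of -2.26 (-2.71 to -1.85) at 6 dpa over 0 dpa.

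miR-338-1-3p, known from myelinating glia, had 202, 51, 40 and 37 reads at 0, 3, 6 and 14 dpa. Its log2 fold change over 0 dpa was -1.08 (-1.55 to -0.63), -1.57 (-2.10 to -1.08) and -2.21 (-2.76 to -1.70) at 3, 6 and 14 dpa. miR-338-1-3p was thus lower at each regenerating stage, as miR-124 and miR-128 were. The study's own sequencing gives the same -1.57 for the axolotl at 6 dpa. Its qRT-PCR, run in triplicate, also found miR-338 lower in the axolotl limb at 6 dpa. miR-132-1-3p, which follows neuronal activity in mammals, had 59, 28, 16 and 11 reads. miR-218a-1-5p and miR-218b-5p, known from motor neurons, went down to 38 reads each at 6 dpa, from 221 and 193 at 0 dpa. At 14 dpa they had 110 and 127 reads. miR-7b-5p was the member of the list with higher levels, with 68 reads at 0 dpa and 300 at 3 dpa (log2 fold change 3.04, 2.66 to 3.45). At 6 dpa its log2 fold change over 0 dpa was 2.14 (1.73 to 2.57). The study's own sequencing gives the same 2.14 for the axolotl, and it names miR-7b among its commonly upregulated miRNAs. Its qRT-PCR found miR-7b raised in zebrafish and bichir, but its discussion calls miR-7 significantly downregulated in regenerating axolotl forelimbs. The rise seen here rests on 1 library per stage. miR-138-5p had 214, 65, 137 and 159 reads and was past the cut-off at 3 dpa (-0.81, -1.24 to -0.41). The nervous tissue list and the 4 neural miRNAs each held miRNAs that were lower at 6 dpa and 1 that was higher under TMM. Over all miRNAs 43.4% were lower and 38.5% higher, so these counts do not set the lists apart from other miRNAs. For the neural miRNAs the higher one was miR-9, which was within the cut-off under total counts (0.01) and the upper quartile (0.33).

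miRNAs known from other limb tissues also differed between the stages. The summed share of 7 skeletal muscle miRNAs was 20.1% of the miRNA reads at 0 dpa and 4.76%, 2.57% and 0.486% at 3, 6 and 14 dpa, and 5 of 7 at 6 dpa and 7 of 7 at 14 dpa were lower than at 0 dpa, against 43.4% and 39.2% of all miRNAs. The 2 cartilage miRNAs went from 25.2% at 0 dpa to 0.658% at 14 dpa. The 8 epidermis miRNAs took 2.81%, 2.39%, 13.0% and 11.2% from 0 to 14 dpa, and the 5 leukocyte miRNAs between 0.455% and 0.926%. Some sums rested mainly on 1 miRNA. miR-140-3p had 325754 of 326591 cartilage reads at 0 dpa, and miR-203a-3p had 126034 of 164539 epidermis reads at 6 dpa. miR-146a-5p had 4816 of 5905 leukocyte reads at 0 dpa. Of the 5 leukocyte miRNAs, 4 were higher at each of 3, 6 and 14 dpa (medians 2.28, 1.99 and 0.94), against 28.0%, 38.5% and 35.0% of all miRNAs. Lower were 0, 0 and 1, against 27.3%, 43.4% and 39.2%. Of the 8 epidermis miRNAs, 6 were higher at both 6 and 14 dpa, against 38.5% and 35.0% of all miRNAs. miR-205-5p was the 1 lower (-0.73 and -0.63), against 43.4% and 39.2%. The 2 erythrocyte miRNAs had 55, 424, 312 and 98 reads. All miRNAs of these lists were detected at every stage, as were nearly all of the 143 miRNAs (140 at 3 dpa, the fewest). The part of these lists in the levels of the neural miRNAs was not tested.

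Set against the muscle list inside each library, the neural miRNAs had different courses. For 10000 reads of the 7 muscle miRNAs there were 14.1 reads of miR-128 (12.7 to 15.6) at 0 dpa, 27.0 (22.3 to 32.4) at 3 dpa, 5.24 (3.05 to 8.39) at 6 dpa and 45.0 (32.4 to 60.9) at 14 dpa. Relative to this sum, miR-128 was therefore lower at 6 dpa and higher at 3 and 14 dpa than in the uninjured limb. The sum changed in make-up, with miR-206 at 153884 of 260222 reads at 0 dpa and miR-1b at 18345 of 32440 at 6 dpa. Single muscle miRNAs differed. At 6 dpa over 0 dpa, miR-133a-1-3p (log2 -5.07) and miR-499-5p (-4.21) fell more than miR-128 (-3.66), the others less. At 3 dpa, miR-1a-3p (-0.49), miR-1b (-0.25) and miR-1d-3p (0.13) stood above miR-128 (-0.76), the others below. At 14 dpa only miR-1d-3p (-2.54) stood above miR-128 (-2.89). For 10000 reads of the summed muscle list, miR-9 had 1.96 reads (1.46 to 2.58) at 0 dpa and 588 (538 to 641) at 14 dpa. For miR-124 the values were 0.922 (0.591 to 1.37) at 0 dpa, 0.466 (0.0564 to 1.68) at 3 dpa, 0.308 (0.00780 to 1.72) at 6 dpa and 4.29 (1.17 to 11.0) at 14 dpa. For miR-137 they were 1.31 (0.905 to 1.83), 5.36 (3.40 to 8.04), 3.08 (1.48 to 5.67) and 12.9 (6.65 to 22.5). Each interval of miR-124 thus overlapped that of 0 dpa, and miR-137 had higher values at all later stages, with an overlap at 6 dpa.

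The mRNA libraries of the same stages were searched for transcripts of the nerve. All 4 myelin and Schwann cell genes compared had lower levels at each regenerating stage, against 28.6%, 30.8% and 33.0% of all transcripts lower at 3, 6 and 14 dpa. The study lists these transcripts among those that fell, so their direction is not independent evidence. *mpz*, the main protein of peripheral myelin, had 20639 reads at 0 dpa and 3307, 877 and 172 reads at 3, 6 and 14 dpa. Its scaled level was 1655 cpm at 0 dpa and 95.1, 39.8 and 8.25 cpm later. The log2 fold change was -4.12 (-4.17 to -4.07) at 3 dpa, -5.38 (-5.48 to -5.28) at 6 dpa and -7.65 (-7.87 to -7.43) at 14 dpa. *mpz* was thus lower at every stage than at the one before, with intervals far apart.

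*mag*, a glycoprotein of the myelin next to the axon, had 56, 15, 0 and 6 reads and was at least 33.0-fold lower at 6 dpa, taking the entry of 0 at the floor of 3 reads. *pou3f1*, a transcription factor of Schwann cells before they make myelin, had 119, 78, 37 and 23 reads, with a log2 fold change of -2.50 (-3.08 to -1.96) at 6 dpa. *prx*, which encodes the myelin protein periaxin, had 695, 777, 466 and 296 reads and -1.40 (-1.57 to -1.23) at 6 dpa. Summed over its Trinity component, *prx* stood at -2.25, -2.91 and -3.56 at 3, 6 and 14 dpa, against -1.32, -1.40 and -1.97 for the single transcript. The myelin transcripts and miR-124 and miR-128 were thus all lower at 6 dpa than at 0 dpa. From 6 to 14 dpa *mpz* was lower again, while the interval of miR-128 held 0 (log2 fold change 0.77, -0.07 to 1.68). A link between these transcripts and the miRNAs was not tested. The medians of the 4 genes were -2.73 at 3 dpa, -3.77 or lower at 6 dpa, where *mag* is a bound, and -3.52 at 14 dpa, against 0.17, 0.06 and 0.05 for all transcripts compared.

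Transcripts of axons and synapses did not share 1 direction, and the study lists *kif1b* among rising and *ache* and *syt1a* among falling transcripts. *ache*, the acetylcholinesterase of neuromuscular junctions, had 400 reads at 0 dpa and 64, 51 and 30 later, with a log2 fold change of -3.79 (-4.24 to -3.37) at 6 dpa. *MAP1B*, a microtubule protein of growing axons, had 6 reads at 0 dpa and 226, 138 and 61 later, with 3.74 (2.61 to 5.22) at 3 dpa and 3.68 (2.54 to 5.17) at 6 dpa. *MAP1B* was thus highest at 3 and 6 dpa. *kif1b*, a kinesin that carries cargo along axons, had 79, 338, 211 and 105 reads and was past the cut-off at 3 dpa (0.62, 0.26 to 0.99) and 6 dpa (0.60, 0.22 to 0.99). At 14 dpa *kif1b* stood at -0.33 (-0.77 to 0.11), and at 0.13 under total counts. *syt1a*, a calcium sensor of synaptic vesicles, had 10 reads at 3 dpa and entries of 0 at the other stages, so that its change could not be sized. Of the other 3 axon and synapse genes, 2 were higher and 1 was lower at both 3 and 6 dpa, and 1 was higher and 1 lower at 14 dpa. Over all transcripts, 37.5%, 32.9% and 33.1% were higher and 28.6%, 30.8% and 33.0% lower at the 3 stages.

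Genes reported in other vertebrates as targets of the 4 miRNAs were compared next. Whether the miRNAs act on these genes in the limb was not tested. Of 9 such genes, *MAP1B* among them, 6 were higher at 3 dpa, 4 at 6 dpa and 5 at 14 dpa, and 0 were lower past the cut-off. Of all transcripts, 37.5%, 32.9% and 33.1% were higher and 28.6%, 30.8% and 33.0% were lower at these stages. Under total counts, which moved the median of all transcripts by 0.20, 0.50 and 0.45, these counts were 7, 6 and 7, against 43.7%, 49.2% and 47.1% of all transcripts higher. The medians of the 9 genes under TMM were 0.71, 0.51 and 0.96. *snai2*, *rcor1*, *ezh2* and *bmi1a* come from the study's list of rising transcripts and *phf6* from that of falling ones, so those directions are not independent.

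Among the miR-124 targets, *snai2*, a transcription factor of epithelial to mesenchymal transition, had 326, 5409, 1686 and 1443 reads, with a log2 fold change of 2.57 (2.41 to 2.74) at 3 dpa and 1.55 (1.38 to 1.73) at 6 dpa. *itgb1a*, the integrin beta chain, had 3248, 12362, 8009 and 5810 reads and was within the cut-off at 6 dpa (0.48, 0.42 to 0.54), but past it under total counts (0.98 at 6 dpa and 0.65 at 3 dpa). *snai2* was thus highest at 3 dpa. *rcor1* and *ctdsp2* encode partners of REST, the repressor of neuronal genes. *rcor1* was at 0.12 (-0.02 to 0.25), 0.61 (0.47 to 0.74) and 0.96 (0.83 to 1.10) at 3, 6 and 14 dpa. *ctdsp2* was at -0.35, -0.42 and -0.21, and under total counts its sign turned at 6 dpa (0.08) and 14 dpa (0.24).

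*ezh2*, the methyltransferase of Polycomb complex PRC2 and a reported target of miR-124 and miR-137, had 129, 1256, 624 and 894 reads. Its log2 fold change was 1.80 (1.54 to 2.08) at 3 dpa, 1.45 (1.18 to 1.74) at 6 dpa and 2.05 (1.78 to 2.33) at 14 dpa. *ezh2* was thus higher at each of these stages than at 0 dpa. *her6*, a Hes repressor and a miR-9 target in zebrafish, had 64, 555, 161 and 156 reads. Its log2 fold change was 1.64 (1.26 to 2.03) at 3 dpa, 0.51 (0.08 to 0.95) at 6 dpa and 0.54 (0.12 to 0.99) at 14 dpa, with 1.01 and 0.999 under total counts at these last stages. At 14 dpa *her6* and *MAP1B* were each above their 0 dpa level, *MAP1B* by 2.59 (1.40 to 4.11) on the log2 scale.

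For miR-128, *bmi1a*, a subunit of Polycomb complex PRC1, was at 0.71 (0.30 to 1.16), 0.07 (-0.40 to 0.56) and 0.58 (0.12 to 1.05) at 3, 6 and 14 dpa, the last of these just within the cut-off and past it under total counts (1.03) and in the component sum (0.68). *phf6*, a chromatin protein, was at 0.63 (0.29 to 0.98), -0.08 (-0.47 to 0.32) and 1.42 (1.09 to 1.77). Its sign at 6 dpa turned under total counts (0.42) and in the sum over its Trinity component (0.66, past the cut-off). That sum was within the cut-off at 3 dpa (0.54).

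**Figure D5:**
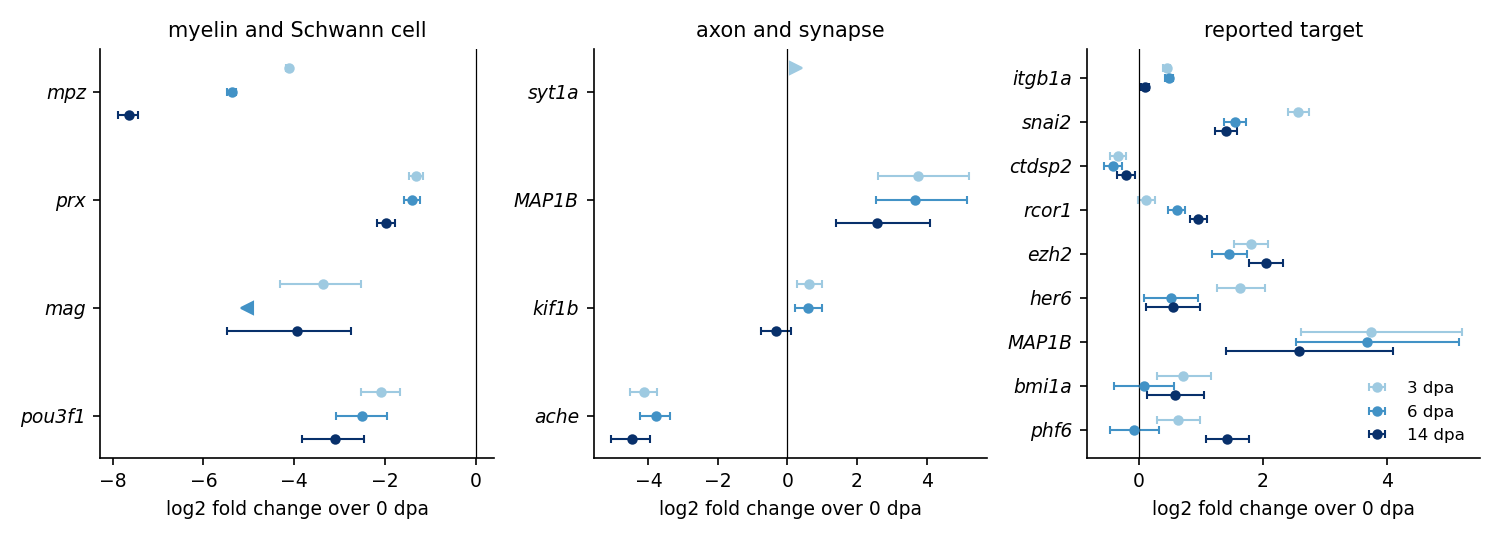
log2 fold change of nerve transcripts and of reported targets of the neural miRNAs over 0 dpa at 3, 6 and 14 dpa (points with exact 95% counting intervals), with triangles for bounds where an entry is 0. *mpz* went down to -7.65 at 14 dpa, while *MAP1B* reached 3.74 at 3 dpa and *ezh2* stayed above 1.45 at each stage.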

How the data were processed

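Values were taken from the axolotl miRNA and mRNA tables. The authors clipped, trimmed and collapsed the small RNA reads with the FASTX Toolkit, annotated tags of 20 to 25 nt with miRMiner against miRBase 21, assembled the mRNA reads with Trinity after Trimmomatic and counted them with RSEM. The versions of these tools are not given in the sources used here. The deposited values are log2 of whole reads in both tables and were turned back into reads, with a largest relative deviation from a whole number of 3.47e-09. Error marks (7) in the miRNA table were read as 0 reads, and an mRNA entry of 0, which can stand for 0 or 1 read, as 0. Repeated mRNA lines (3200 of 93299) were used once.

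TMM factors (0 dpa as the reference, 30% and 5% trimmed) were 1.39, 1.07, 0.843 and 0.799 at 0, 3, 6 and 14 dpa. A prior of less than 1 read, scaled to each library, was added before log2 ratios were formed. Transcripts needed at least 10 reads over the 2 libraries, and all miRNAs were kept. Python 3.11.15, NumPy 2.4.6, pandas 2.3.3, SciPy 1.17.1 and matplotlib 3.10.9 were used. The fold change calculation was run on simulated counts in which most features were unchanged. Most miRNAs here passed the cut-off against 0 dpa, so that run does not check the scaling for these data. A gene's transcript is the one with most reads among those the study's supplementary tables pair with it. Such transcripts numbered 8 for *ache*, 6 for *prx* and 3 for *mag*. They numbered 2 for each of *pou3f1*, *MAP1B*, *kif1b*, *snai2*, *bmi1a* and *phf6*. The component sums do not take in all of them, since the components of *ache* and *mag* hold 2 and 1 transcripts. The 4 miRNAs, the 3 nearest miRNAs of each and fixed lists of miRNAs and genes were named, and these lists came from general knowledge. The members and lists were chosen with earlier results of these data known. Genome positions are not reported, since no genome sequence was used here.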

Additional observations from a re-analysis of the deposited data

How the results depend on the processing

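The alternatives were 4 other scalings, TMM without miR-21, prior counts of 0.5 and 1, at least 10 reads in every library, a cut-off of 1, and, for transcripts, total counts, no filter and component sums. Of 155 values of the neural miRNAs, 154 kept their sign and 0 past the cut-off turned. Under total counts, miR-128 stood at -1.14 at 3 dpa and -3.69 at 14 dpa over 0 dpa, and miR-9 at 0.0104 at 6 dpa and 2.86 at 14 dpa. From 3 to 6 dpa, miR-9 stood at 0.57 under total counts and 0.44 under the upper quartile, within the cut-off, against 0.91 under TMM. The neural miRNAs past the cut-off at 3 dpa were 1 in place of 2 with at least 10 reads in every library, which left out miR-124, and 1 with a cut-off of 1. That filter on reads left 63 of all miRNAs past the cut-off in place of 79, with fewer miRNAs compared. At 6 dpa over 0 dpa, total counts and the upper quartile each left 3 in place of 4, against 116 and 114 of all 143 miRNAs in place of 117. A cut-off of 1 left 2 there, against 89 of all 143. Over all miRNAs a cut-off of 1 left 49 in place of 79 at 3 dpa over 0 dpa and 42 in place of 72 at 14 dpa over 6 dpa. The nearest miRNAs say nothing of stability, since a scaling of whole libraries nearly cancels in the distances. Of the 9 target genes, 5, 5 and 6 were higher at 3, 6 and 14 dpa in component sums. The share of all components that were higher is not given here, so these counts have no comparison. Counting mRNA entries of 0 as 1 read and the ratio to the muscle list were chosen after seeing the data. No paired analysis was possible because each stage has 1 library, and leaving out a library would remove the stage. Depth limits miR-124 and miR-137 most, with 1 to 24 and 10 to 34 reads per library.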
